A study of Mus musculus with 12 samples.

Results

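The clustered protocadherins are 57 of the 21627 protein-coding genes that the RefSeq table of mouse build GRCm38.p6 (the coordinates of mm10) lists on chromosomes 1 to 19 and X. They were chosen by symbol: the names begin with Pcdha, Pcdhb or Pcdhg, and all lie on chromosome 18. Pcdha has 14 members between 36930285 and 37188897, Pcdhb has 22 between 37264998 and 37521419, and Pcdhg has 21 between 37661775 and 37841873. The data are Cut & Run libraries, in which a nuclease tethered by an antibody cuts out the DNA around its target for sequencing. They come from mouse embryonic fibroblasts, connective tissue cells cultured from embryos, that carried a knockout of Fbxw7 (KO) or were wild type (WT), with no other allele or agent in the labels. Antibodies against H3K4me3, H3K4me1 and MLL4 (the product of Kmt2d) each gave 2 KO and 2 WT libraries. Fbxw7 is the substrate-binding subunit of a ubiquitin ligase, MLL4 is a methyltransferase that places H3K4me1, a mark common at enhancers, and H3K4me3 is a mark of promoters. The labels give neither the origin of the 2 libraries of a group (1 culture or several) nor how Fbxw7 was knocked out, so p-values here cover the spread among the deposited libraries alone, which may be technical.

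Clustered protocadherins are cell-surface proteins of the cadherin superfamily. Neurons are known to express different combinations of them, which bind like to like and help a neuron tell its own branches from those of others. Each variable exon of Pcdha and Pcdhg has its own promoter, and its transcript is spliced to a few constant exons at the far end of the cluster; Pcdhb genes have a single large exon and no constant part. CTCF and cohesin bring distant enhancers to a chosen promoter, and promoters not chosen are known to carry DNA methylation. The C-type genes (Pcdhac1, Pcdhac2, Pcdhgc3, Pcdhgc4 and Pcdhgc5) stand nearest to the constant exons and are used more regularly than the others.

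The coordinates show this arrangement. In Pcdha, 13 of 14 members end within 10 bp of each other at 37187657 and Pcdha6 ends 1240 bp further, while in Pcdhg all 21 end within 10 bp of 37841870. The lower coordinate of a member is therefore called its start, and shared ends are counted once. Starts are close together, with a median gap of 7440 bp in Pcdha, 7842 bp in Pcdhb and 5369 bp in Pcdhg. Members are paralogs with similar exons, and how reads that match more than 1 of them were treated is not given in the sources used here. Since genes overlap this way, peaks were counted as distinct merged regions: the peaks of the 4 libraries of a mark were joined where they shared at least 1 bp, and a library holds a region if it has a peak in it. The clusters with 1 kb either side cover 701 kb.

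The whole libraries differ in ways that bear on every H3K4me3 value below. The KO H3K4me3 libraries had 5519477 and 5938102 filtered fragments and 10397 and 11281 peaks, against 11319701 and 6185767 fragments and 17460 and 16078 peaks in the WT libraries. The authors' caller kept up to 2 duplicate fragments per position in WT 1 and 1 in the other 3. For H3K4me1, KO libraries had 13627038 and 12611409 fragments with 59908 and 53120 peaks, and WT libraries had 12607690 and 11604131 with 62065 and 56616. The annotated Fbxw7 gene on chromosome 3 had 1 H3K4me3 peak in each KO library, against 2 and 3 in the WT libraries, which does not check the genotype because the deleted part is not given. With 2 libraries against 2, an exact two-sided permutation test over 6 assignments cannot give a p below 0.33, so no difference is called a rise or a fall.

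H3K4me3 peaks along the protocadherin clusters were few in the KO lists. The WT lists had more of them, still at a minority of the member starts. Of 24 merged regions, KO 1 held 2 and KO 2 held 5, against 22 in WT 1 and 16 in WT 2. The groups did not overlap: KO libraries averaged 3.50 ± 2.12 regions and WT libraries 19 ± 4.24 (SD, n = 2 each), a difference of -15.5 (exact permutation p = 0.33, the smallest possible). The deepest library, WT 1, held the most regions, and the part of depth in the difference was not tested. Bases under peaks gave the same order, 868 and 1886 in KO against 16042 and 11019 in WT (difference -12154, exact permutation p = 0.33).

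Of these 24 regions, 13 were held by both WT and neither KO library (WT-only, 54.2%), none was held by both KO and neither WT library (KO-only), none was held by all 4 and 7 were held by a single library. Over all 17842 H3K4me3 regions of the genome the WT-only share was 21.7% and the KO-only share 0.0560%, with 46.8% in all 4. Of these 17842, 3069 were held by a single library. The protocadherin share lies above the genome's, but in KO 2, WT 1 and WT 2 most protocadherin peaks rank in the lower part of their list, and in KO 1 the 2 peaks lie near its middle. Ranked by −log10 q within its own library, a peak along the clusters had a median percentile of 50.3 and 16.2 in KO 1 and KO 2, against 25.2 and 16.2 in WT 1 and WT 2. Among regions held by both WT libraries, 13 of 16 along the clusters (81.2%) were WT-only, against 26.4% of all 14667. In the lowest of 4 equal classes of WT 2 rank the shares were 10 of 11 along the clusters (90.9%) and 75.8% over the genome, and in the next class 3 of 5 (60.0%) and 24.3%. The upper 2 classes held no protocadherin region.

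The difference in regions held does not remain once lists are made equally long, a step that by construction drops the weakest peaks of the longer lists. With each H3K4me3 list reduced to the number of peaks in the shortest, KO 1 and KO 2 held 2 and 3 regions along the clusters and WT 1 and WT 2 also held 2 and 3. The difference was then 0, no region was WT-only and 1 was KO-only. The bases under peaks still differed by -1663 (exact permutation p = 0.33, the smallest possible). Over the whole lists before this cut, the median peak length was 540 and 579 bp in KO against 1218 and 1054 bp in WT. The part of peak length in the difference in bases was not tested. The regions kept in WT were those at Pcdhac2 and between Pcdhac2 and the shared Pcdha end in both libraries, and that at Pcdhgb7 in WT 2. The other WT peaks along the clusters ranked below the length of the shortest list, and what makes the WT lists longer was not tested.

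**Figure D1:**
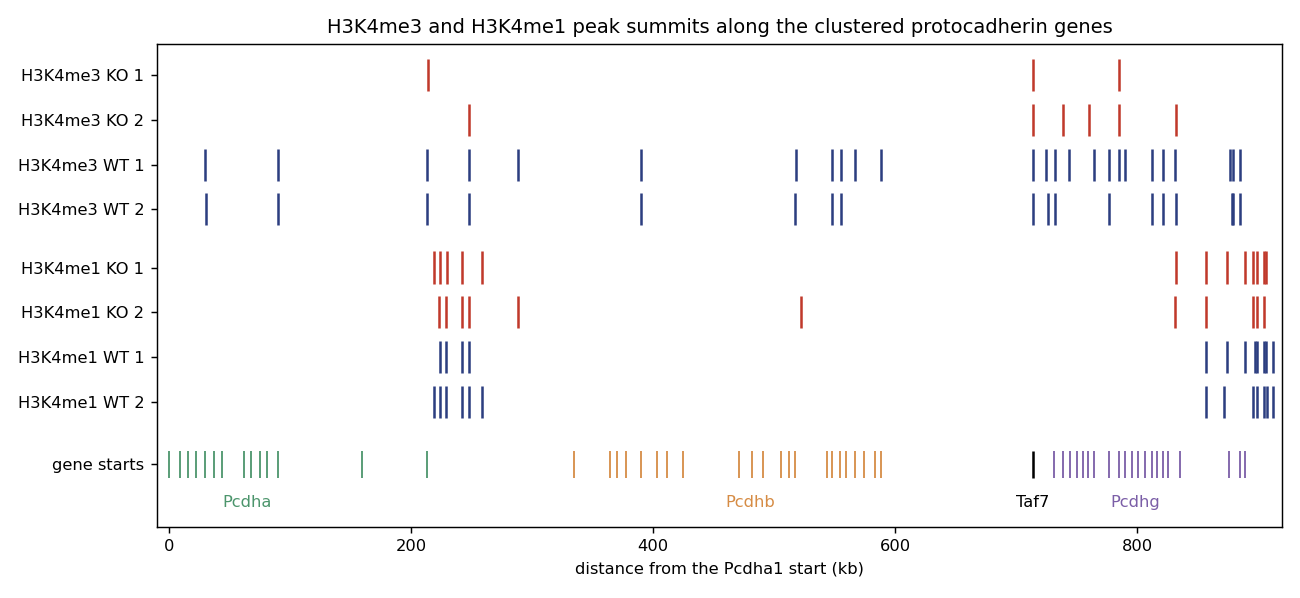
Peak summits of H3K4me3 and H3K4me1 in each library (KO rows above WT rows, 2 libraries each) against the distance from the Pcdha1 start in kb, with member starts coloured by cluster and the start of Taf7 in black. H3K4me3 ticks are few in the KO rows and lie over starts in the WT rows, while H3K4me1 ticks gather at the downstream parts of Pcdha and Pcdhg in all 4 rows.

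H3K4me3 sat on the starts of single variable exons. Of the 24 regions, 21 lay within 51 bp of a member's start and 11 of these covered it. The nearest of the other 3 was 2776 bp from a member start. One of those 3 covered the start of Pcdhgb8, a transcribed pseudogene of the same array and so no member. No 2 members shared a region, so 21 members had H3K4me3 within 1 kb of their start in at least 1 library and 36 had none. The peak summits lay downstream of the start in 2 of 2 and 3 of 3 peaks in KO 1 and KO 2, against 18 of 19 and 11 of 13 in WT 1 and WT 2, with a median offset of 159 and 86 bp in KO against 146 and 125 bp in WT. The peaks were short: the median length of a peak along the clusters was 434 and 305 bp in KO against 618 and 529 bp in WT, where the whole lists had medians of 540 and 579 bp in KO and 1218 and 1054 bp in WT.

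**Figure D2:**
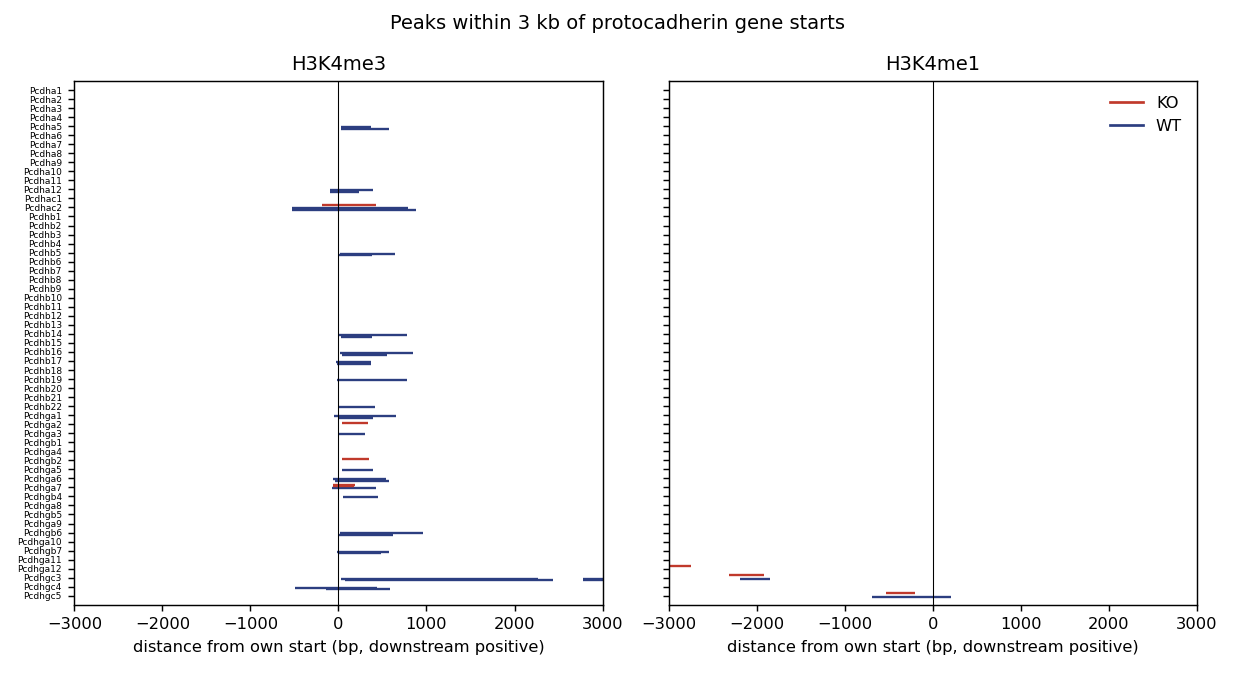
Extent of each peak within 3 kb of the start of the nearest member, in bp from that start (downstream positive), with 1 row per member and KO lines above WT lines within a row. H3K4me3 peaks begin at or next to the start and run downstream, and H3K4me1 is seen near the starts of Pcdhgc3 and Pcdhgc5 and the last Pcdhga gene only.

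Starts with H3K4me3 numbered 2 and 3 of 57 in KO 1 and KO 2 (3.51% and 5.26%), against 19 and 13 in WT 1 and WT 2 (33.3% and 22.8%). KO libraries averaged 2.50 ± 0.707 starts and WT libraries 16 ± 4.24 (SD, n = 2 each; difference -13.5, exact permutation p = 0.33). Equal list lengths gave 2 and 2 starts in KO against 1 and 2 in WT, a difference of 0.5 in the other direction. Over all 21019 distinct protein-coding starts of the RefSeq promoter table, which has none on chromosome 18, the shares were 40.2% and 42.7% in KO and 56.5% and 54.3% in WT. The share of protocadherin starts with the mark was below that of all starts in each of the 4 libraries, a difference given as a description. WT-only starts numbered 12 of 57 members, against 8.14% of all starts, and KO-only starts numbered 0, against 0% of all starts. All 13 member starts of WT 2 were among the 19 of WT 1. Of the 4 members with a peak in a KO library, 1 had it in both KO libraries and 2 had none in WT.

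Pcdha had H3K4me3 at 1 and 0 of its 14 starts in KO 1 and KO 2, against 3 and 3 in WT 1 and WT 2. The 3 were Pcdha5, Pcdha12 and Pcdhac2, the first 2 in the WT libraries alone. At Pcdha5, one of the alternately chosen isoforms, the region at 36960302 to 36960847 had −log10 q of 5.0 and 4.34 in WT 1 and WT 2, near the bottom of both lists (percentiles 5.12 and 4.53). At Pcdha12, the last alternate isoform before the C-type genes, the region at 37020139 to 37020622 had −log10 q of 8.86 and 4.38 in the WT libraries (percentiles 14.9 and 5.02). Both are weak peaks, of 8 to 15 fragments at the summit. Pcdhac2, the C-type gene nearest to the constant exons, had the strongest: −log10 q was 7.12 in KO 1, with no peak in KO 2, against 37.4 and 14.1 in WT 1 and WT 2. Its rank within the list was as high in KO 1 (percentile 59.6) as in WT 1 (55.9) and WT 2 (39.0). The first member, Pcdha1, and the other C-type gene, Pcdhac1, had no peak of H3K4me3 or H3K4me1 within 1 kb of their starts in any library.

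A second Pcdha region lay away from any start, at 37177626 to 37178872. This region was 33948 bp past the Pcdhac2 start and 8785 to 10031 bp before the shared end. Exon positions were not at hand, so its place relative to the constant exons is not known here. Its −log10 q was 5.41 in KO 2, with no peak in KO 1, against 33.7 and 18.3 in WT 1 and WT 2. H3K4me1 overlapped it in KO 2 (−log10 q of 2.89) and in both WT libraries (2.82 and 5.54). It had the highest −log10 q of all H3K4me3 peaks along the clusters in KO 2 and in WT 2.

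Pcdhb had no H3K4me3 peak in either KO library, against 6 regions in WT 1 and 4 in WT 2, each at 1 of its 22 starts. Of the 6, 4 were WT-only. Pcdhb16 had −log10 q of 23.9 and 8.73 in WT 1 and WT 2 (37477789 to 37478616), Pcdhb17 had 17.5 and 8.24 (37484997 to 37485394), Pcdhb5 had 13.1 and 7.62 (37320392 to 37321024), and Pcdhb14 had 11.0 and 3.78 (37447650 to 37448434). Pcdhb19, with 11.9, and the last member, Pcdhb22, with 8.28, had a peak in WT 1 alone. All but Pcdhb5 lie from Pcdhb14 on. Neither the first member, Pcdhb1, nor the other 15 had one. The far ends of the 22 single-exon genes had no peak of either mark in any library.

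Pcdhg held 14 of the 24 regions, 1 and 4 in KO 1 and KO 2 against 12 and 8 in WT 1 and WT 2. Its A and B genes alternate along the array, and 10 of them had H3K4me3 at the start. The WT-only ones were Pcdhga6 (−log10 q of 25.3 and 6.82 in WT 1 and WT 2), Pcdhgb7 (22.9 and 13.3), Pcdhga1, the first member (19.9 and 12.5), and Pcdhgb6 (17.6 and 5.27). Pcdhga5 (9.74), Pcdhga3 (5.92) and Pcdhgb4 (3.27) had a peak in WT 1 alone. The WT 1 peak of Pcdhgb4 was near the foot of its list, at percentile 1.14.

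The Pcdhg array also held the few starts marked in KO. Pcdhga7 was the one member with a peak in both KO libraries: −log10 q was 5.82 and 4.68 in KO 1 and KO 2, against 20.8 in WT 1 and no peak in WT 2. Pcdhga2 (4.37) and Pcdhgb2 (2.93) had a peak in KO 2 alone, at percentiles 16.2 and 2.28. The start of the pseudogene Pcdhgb8 (37761433 to 37762516) had 3.64 in KO 2 and no peak in KO 1, against 6.63 and 5.65 in WT 1 and WT 2. The KO peaks thus differed between the 2 KO libraries at all but Pcdhga7.

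**Figure D3:**
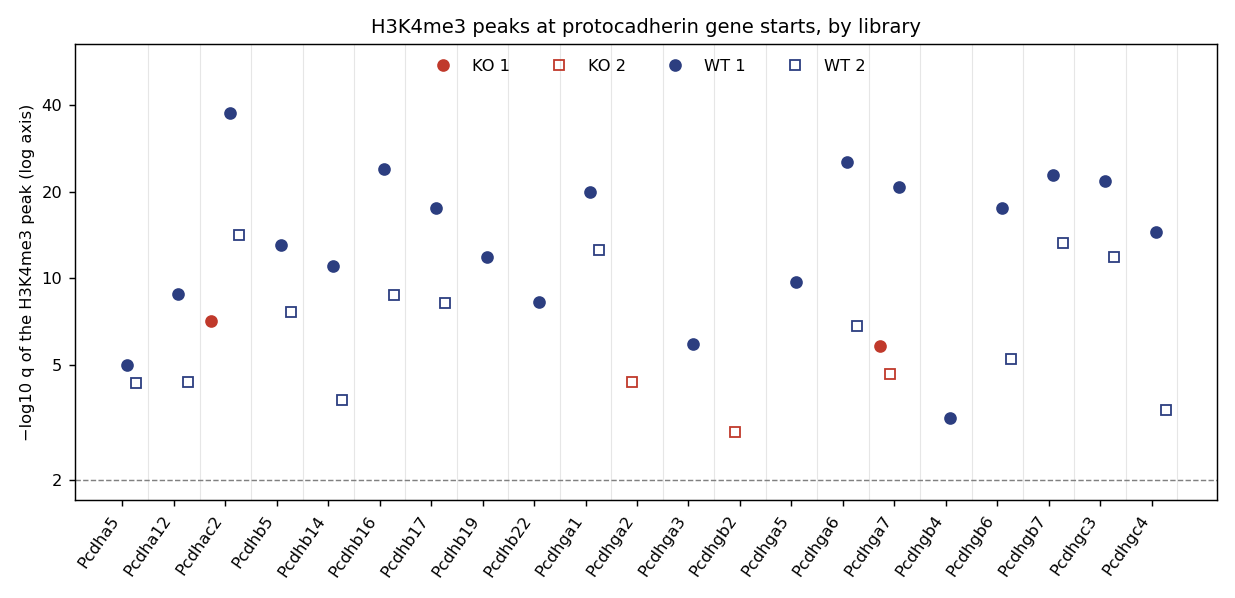
−log10 q (log axis, the authors' value) of the H3K4me3 peak at the start of each of the 21 members that had one, with KO in red and WT in blue, filled circles for the first and open squares for the second library. The dashed line is the cutoff of the lists, and a missing symbol means that no peak passed it. KO symbols stand at Pcdhac2, Pcdhga2, Pcdhgb2 and Pcdhga7, and q depends on depth, which was highest in WT 1.

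Among the C-type genes at the end of Pcdhg, the peak at Pcdhgc3 was the widest. It was 2234 and 2361 bp long in WT 1 and WT 2, against 934 and 734 bp at Pcdhgc4. Pcdhgc3 had the longest H3K4me3 region of the clusters, 2403 bp (37806443 to 37808845), with −log10 q of 21.7 and 11.9 in WT 1 and WT 2 and no peak in KO. A further WT-only region began 2776 bp past its start (14.4 and 5.22), and Pcdhgc4 had a WT-only region over its start (14.5 and 3.49). Pcdhgc5, the last member, had no H3K4me3. The summit pileup of Pcdhgc3, 118 and 59 fragments in WT 1 and WT 2, was the highest of the clusters, yet its fold over the local background was only 2.99 and 3.22. The local background implied by pileup and fold reached 41.1 and 19 fragments in this stretch in WT 1 and WT 2, against list medians of 9.52 and 5.77. This background comes from the same library over 10000 bp, so it includes these peaks, and coverage outside them was not measured. What the KO libraries had below their cutoff is not analysed here. Without the stretch from Pcdhgc3 to the shared end, the difference in regions held was -12.5 and 10 regions were WT-only.

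H3K4me1 had another layout: it was nearly missing at the starts and gathered downstream of them, in libraries of both genotypes. Of 19 merged regions, KO 1 and KO 2 held 12 and 10, against 11 and 13 in WT 1 and WT 2. The groups overlapped (11 ± 1.41 regions for KO and 12 ± 1.41 for WT, SD, n = 2 each, difference -1, exact permutation p = 0.667). In all, 6 regions were in all 4 libraries (against 28.7% of all 94400 H3K4me1 regions), 1 was WT-only (5.26%, against 6.63% of all) and none was KO-only (against 5.37%). A single library held 6 of the 19, against 34555 of all 94400. Bases under peaks were 5689 and 7154 in KO against 8567 and 7789 in WT, which did not overlap (difference -1756, exact permutation p = 0.33). With lists of equal length the groups overlapped in bases as well (difference -1006, exact permutation p = 0.667).

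By position, the 213 kb of Pcdha upstream of Pcdhac2 had no H3K4me1 peak in any library. The 47.2 kb from Pcdhac2 to the shared Pcdha end had 5 and 4 in KO against 4 and 6 in WT. Pcdhb had 1 peak, in KO 2. In Pcdhg, the 106 kb from Pcdhga1 to Pcdhga12 had 1 and 1 in KO against none in WT, the 38.8 kb from there to Pcdhgc3 had 2 and 1 against 2 and 2, and the 37.5 kb from Pcdhgc3 to the shared end had 5 and 3 against 6 and 5. The H3K4me3 peaks of the same stretches numbered 0 and 0 in KO against 2 and 2 in WT upstream of Pcdhac2, 1 and 4 against 9 and 5 from Pcdhga1 to Pcdhga12, and none from there to Pcdhgc3. The C-type and constant parts had H3K4me3 as well, 1 and 1 peaks in KO against 2 and 2 in WT from Pcdhac2 to the shared Pcdha end, and 0 and 0 against 3 and 3 from Pcdhgc3 to the shared Pcdhg end. H3K4me3 thus lay over both alternate and C-type parts, while H3K4me1 was seen mainly in the C-type and constant parts and before Pcdhgc3. Only 2 of the 24 merged H3K4me3 regions overlapped a merged H3K4me1 region (8.33%), against 39.6% of all H3K4me3 regions. Merged regions pool the libraries of both genotypes. At 37761433 to 37762516, the H3K4me1 peak was from KO 2 and the H3K4me3 peak that it met was from WT 1. H3K4me3 peaks were shorter along the clusters than in the whole lists, which was not adjusted for.

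**Figure D4:**
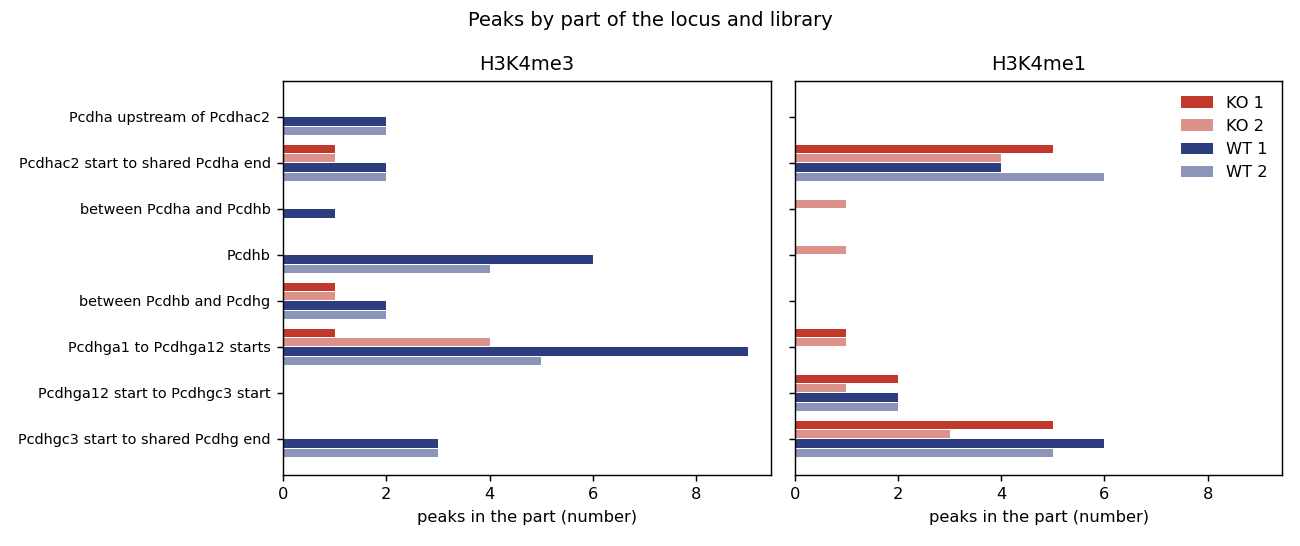
Number of peaks in each part of the locus for H3K4me3 (left) and H3K4me1 (right), with KO bars above WT bars and 1 bar per library. H3K4me1 bars of KO and WT are alike in the parts that end at the shared Pcdha and Pcdhg ends, and the WT 1 bar for H3K4me3 is the longest, alone or with WT 2, in every part that has one.

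Of the 6 H3K4me1 regions held by all 4 libraries, 3 lay past Pcdhac2. Their −log10 q was 4.58 and 3.84 in KO 1 and KO 2 against 5.62 and 6.33 in WT 1 and WT 2 at 37153640 to 37154648, 6.55 and 5.12 against 3.31 and 6.0 at 37159058 to 37160414, and 6.12 and 4.88 against 8.46 and 6.37 at 37171652 to 37172814. One lay between Pcdhga12 and Pcdhgc3, at 37786539 to 37788047 (4.98 and 5.78 in KO against 7.84 and 7.65 in WT). The other 2 lay past Pcdhgc5, before the shared end of Pcdhg. At 37828553 to 37829603 the values were 4.86 and 3.92 in KO against 12.4 and 4.64 in WT. At 37834861 to 37836383 they were 11.2 and 14.3 in KO against 6.08 and 6.61 in WT, with percentiles of 93.0 and 98.7 against 52.2 and 60.9. This was the one H3K4me1 region of the 6 whose within-list rank in each KO library exceeded that in both WT libraries. The reverse order, both WT ranks above both KO ranks, held at 37153640 to 37154648, 37171652 to 37172814 and 37786539 to 37788047. How common either order is over all H3K4me1 regions was not computed, so neither is read as a gain or a loss.

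The WT-only H3K4me1 region lay over the shared end of Pcdhg, at 37841689 to 37842592, with −log10 q of 9.2 and 3.58 in WT 1 and WT 2. Of all 57 starts, H3K4me1 was found at Pcdhgc5 alone, in 1 library of each genotype (5.01 in KO 1 and 4.89 in WT 1). That is 1 and 0 starts in KO against 1 and 0 in WT, where all protein-coding starts had H3K4me1 in 12% and 9.39% in KO against 11.3% and 9.69% in WT. No start was WT-only, against 1.15% of all starts. The shared end of Pcdha had no peak of either mark within 1 kb of its median coordinate, and an H3K4me1 region just beyond it (37188762 to 37189168) had 7.09 in KO 1 and 3.79 in WT 2. Between Pcdha and Pcdhb, a site at 37217549 to 37218300, 29892 to 30643 bp past the shared Pcdha end, had H3K4me3 in WT 1 alone (9.89) and H3K4me1 in KO 2 alone (3.57).

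MLL4 had no peak in the clusters or within 100 kb of them in any library. Its lists were short, with 49 and 40 peaks in KO against 60 and 69 in WT, and 1 peak on the whole of chromosome 18, in WT 2. A missing peak says only that none passed the cutoff.

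The genes around and between the clusters carried stronger H3K4me3 in both genotypes. Of 15 protein-coding genes within 200 kb, 12 had an H3K4me3 peak within 1 kb of an end in all 4 libraries, against 35.0% of all protein-coding genes scored this way. The 15 leave out 3 predicted genes that run across the clusters. Taf7, the gene for a subunit of the general transcription factor TFIID, lies between Pcdhb and Pcdhg. Its −log10 q was 11.0 and 10.1 in KO 1 and KO 2, against 95.6 and 32.2 in WT 1 and WT 2, and its percentile was 90.6 and 80.3 against 98.7 and 89.4. Diaph1, which encodes a formin that nucleates actin and follows Pcdhg, had 12.2 and 8.20 in KO against 87.0 and 26.3 in WT. The peak that Hdac3, a histone deacetylase, shares with Rell2 had 9.79 and 9.86 in KO against 69.7 and 37.6 in WT. On the Pcdha side, Zmat2, a splicing factor gene, had 10.4 and 7.69 in KO against 49.4 and 36.5 in WT, and the peak shared by the histidyl-tRNA synthetases Hars and Hars2 had 16.4 and 15.3 against 83.9 and 46.0. Tmco6, Ndufa2, Ik, Wdr55 and Fchsd1 also had it in all 4 libraries, and Dnd1, Slc25a2 and Arap3 in none. The 9 distinct peaks had a median percentile of 87.5 and 64.9 in KO and 91.3 and 89.4 in WT. A region between Taf7 and Pcdhg, 5557 bp before Pcdhga1 (37655614 to 37656218), was instead WT-only, with 24.6 and 4.87.

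**Figure D5:**
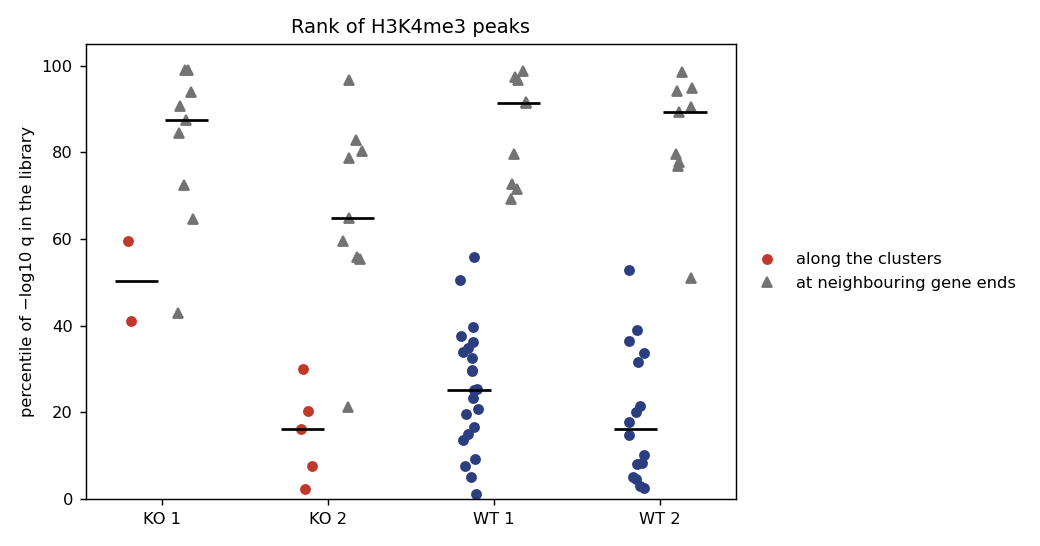
Percentile of each H3K4me3 peak's −log10 q within its own library, for peaks along the clusters (coloured dots, KO red and WT blue) and for the 9 distinct peaks at neighbouring gene ends (grey triangles), with bars at the medians. The cluster peaks have medians of 50.3 and 16.2 in KO 1 and KO 2 and of 25.2 and 16.2 in WT 1 and WT 2, each below that of the neighbours in the same library.

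Peak density set against the rest of chromosome 18 differed by mark. H3K4me3 peaks along the clusters numbered 2.85 and 7.13 per Mb in KO 1 and KO 2, against 31.4 and 22.8 in WT 1 and WT 2, where the rest of the chromosome had 3.27 and 3.50 in KO and 6.06 and 5.27 in WT. H3K4me1 peaks numbered 18.5 and 14.3 per Mb in KO against 17.1 and 18.5 in WT, and 26.5 and 23.8 against 28.1 and 26.3 in the rest. The clusters were thus denser in H3K4me3 than the rest of their chromosome in KO 2 and both WT libraries but not in KO 1, and in all 4 libraries they were less dense in H3K4me1. The clusters are also packed with gene starts, which was not adjusted for.

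Related genes elsewhere were scored on 1 kb either side of both gene ends. With this scoring 8.49% of all protein-coding genes were WT-only for H3K4me3, 0% were KO-only and 35.0% were in all 4 libraries. For H3K4me1 the shares were 1.77%, 1.46% and 5.11%. Annotated ends can miss a promoter inside a wide predicted gene, so a gene without a peak here may still have one. Of the 13 protocadherins outside the clusters, 3 and 4 had H3K4me3 in KO against 9 and 7 in WT, with 3 WT-only and none KO-only. Pcdh1 (−log10 q of 7.12 and 6.83 in KO against 54.5 and 28.4 in WT), Pcdh17 (5.33 and 4.86 against 20.6 and 14.0) and Pcdh18 (6.90 and 12.9 against 39.9 and 16.7) had it in all 4. Pcdh10, Pcdh19 and Pcdh20 were WT-only. H3K4me1 was at 1 and 3 of the 13 in KO against 2 and 2 in WT, in all 4 at Pcdh1 alone.

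Among 15 genes for factors known to act in the choice or silencing of these promoters, 4 and 8 had H3K4me3 in KO against 10 and 10 in WT. Smc3, a cohesin subunit, had −log10 q of 5.02 and 7.49 in KO against 59.1 and 26.9 in WT. Smchd1, which helps to silence clustered protocadherins, had 4.91 and 6.95 in KO against 44.7 and 33.6 in WT. Lbr and Hdac2 were also in all 4, Smc1a and Setdb1 were WT-only and Ctcf had a peak in KO 2 (4.49) and in both WT libraries (34.0 and 19.8). H3K4me1 was at 1 and 0 of the 15 in KO against 2 and 1 in WT, WT-only at Stag2. Of 8 cytoplasmic partners of protocadherins, such as the kinase genes Ptk2 and Ptk2b and the actin regulators of the WAVE complex, 6 and 7 had H3K4me3 in KO against 8 and 8 in WT. Cyfip2 was WT-only. H3K4me1 was at 1 and 0 of the 8 in KO against 1 and 1 in WT.

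Cell type markers were scored in the same way. Of 13 fibroblast markers, 5 and 5 had H3K4me3 in KO against 11 and 10 in WT. Col1a2, Fbn1 and Lum were WT-only for it, and Thy1, Pdgfrb and Dcn had it in all 4. H3K4me1 was at 8 and 6 of the 13 in KO against 7 and 7 in WT. Col1a2, Thy1, Lum, Dcn and Prrx1 had H3K4me1 in all 4. Of 10 neuron markers, 1 and 2 had H3K4me3 in KO against 5 and 5 in WT. Tubb3, Map2 and Syn1 were WT-only, Syt1 was in all 4, and Gap43 was in KO 2 and both WT libraries. H3K4me1 was at 2 and 3 of the 10 in KO against 2 and 1 in WT, with Nefl KO-only and Snap25 in all 4. Of 6 neural progenitor and glia markers, Nes alone had H3K4me3, in both WT libraries and neither KO library, and H3K4me1 was at 1 and 1 in KO against 0 and 1 in WT. Each list had more genes with H3K4me3 in the WT than in the KO libraries, fibroblast markers included, and whether other cells in the cultures bear on the protocadherin counts was not tested.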

How the data were processed

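Cut & Run peak lists of 12 libraries were used. The submitters' processing notes give mm10 as the build, and HOMER 4.10, SAMtools 1.5, Bowtie2, MACS2, bedtools and deepTools as tools, without roles. Per the file headers, the authors called narrow peaks per library using MACS 2.1.0.20150731, with no control, a q cutoff of 0.01, an extension of 147 bp and a local background over 10000 bp. Each deposited list gives the pileup signal (fragments at the summit, unscaled), a fold ratio over the local background, and p and q as −log10 values. These are the authors' values, used here as ranks within a list, as filters or as descriptions. Where KO and WT values are set side by side, they do not measure a difference in the mark. Depth is the filtered fragment count of the file headers, 4435103 to 13627038 per library; q values depend on it.

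From these, peaks on chromosomes 1 to 19 and X were merged with Python 3.11.15, pandas 2.3.3 and numpy 2.4.6 and tested on simulated lists. The local background is (pileup + 1) / fold. Gene positions came from RefSeq tables of GRCm38.p6, without strand or exons. Starts are scored within 1 kb, and genes off the clusters within 1 kb of both ends. Named members are those with H3K4me3 at their start, ranked by mean percentile up to 20 (the last, Pcdhgb4, and the remaining regions complete the count), the C-type members, first and last members, and neighbours within 200 kb. For H3K4me1 regions, those in all 4 libraries or in one genotype alone are named. A few other sites were picked after their values were seen. Members, lists and rules were chosen with earlier results of these data known. Sequences of chromosome 18 were not used here. Alternatives were stricter peaks, equal list lengths, other windows, flanks, overlaps and merging, each library left out and a replicate block.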

Additional observations from a re-analysis of the deposited data

How the results depend on the processing

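Stricter peaks (−log10 q of at least 5), other windows, flanks, overlaps and merging kept the direction of each H3K4me3 difference. The stricter cutoff weighs more on the KO lists, whose median −log10 q was 6.40 and 6.94, against 33.2 and 17.5 in WT. Its outcome therefore says little about the direction. Leaving out each library in turn gave a KO minus WT difference of -12.5 to -18.5 H3K4me3 regions, -10.5 to -16.5 member starts and 13 to 18 WT-only regions, with 0 to 2 KO-only. Lists of equal length gave 0 for H3K4me3 regions, 0.5 for member starts, 0 WT-only and 1 KO-only region, and for H3K4me1 regions the reverse direction, 1. For H3K4me1 the libraries left out in turn gave differences of 0 to -2 regions and -0.5 to 0.5 starts, with 1 to 3 WT-only and 0 to 3 KO-only regions. Stricter peaks gave 0.5 H3K4me1 starts, and merging peaks up to 1 kb apart gave 1 KO-only H3K4me1 region. Without the Pcdhgc3 stretch, a choice made after seeing the data, as was the split by WT rank, H3K4me3 regions differed by -12.5. With the replicate number as a block the difference was -15.5 (exact paired permutation p = 0.5, the smallest possible). Pileup differences between libraries 1 and 2 did not go together in KO and WT over regions held by all 4 libraries. There r was -0.0252 over 8345 H3K4me3 regions and -0.00400 over 27093 H3K4me1 regions. A shift common to all regions does not enter r, and no H3K4me3 region of the clusters was held by all 4. Whether the numbers pair the libraries is therefore not known. The causes were not tested, except that equal lengths drop the weakest peaks of the longer lists, by construction. The q cutoff and 2 libraries per group set what depth allows: a weak start missed in KO is not shown to lack the mark.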
